A study of Vitis rotundifolia with 12 samples.

Results

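The genotype difference in the pedicel of ripe muscadine grapes is described here from 6 RNA-seq libraries of mature fruit, out of 12 libraries in the series. They were chosen by their developmental stage label. Of the 6, 3 came from Ga. 12-3-22, a genotype whose berries are weakly attached (W), and 3 from Ga. 6-1-269, a genotype with strongly attached berries (S). The other 6 libraries are pedicels of the same genotypes at the pea-size stage, 3 for each, and serve as the earlier reading of the same difference. All plants grew in Citra, Florida, and the pedicels were flash frozen in liquid nitrogen. The study states 3 biological replicates for each sample, and attachment strength is represented by 1 genotype on each side, so it cannot be told apart from any other trait in which W and S differ. The values are read counts for 26394 gene models on 20 chromosomes of the muscadine cultivar 'Noble', of which 21577 had at least 1 count in the 6 mature libraries.

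The pedicel is the stalk of the berry. Where it joins the fruit lies the abscission zone, a band of small, densely packed cells that separate when their shared walls are dissolved, which lets the ripe fruit drop or be pulled off with little force. In flowering plants studied so far ethylene promotes this separation and auxin delays it. The walls are opened by secreted enzymes such as polygalacturonases and cellulases. The libraries were made from pedicel tissue, so they hold stalk epidermis, cortex and vascular tissue along with any abscission zone cells. In such tissue, fewer cells of a type and less RNA per cell cannot be told apart. The identifiers of the gene models are not paired with gene names in the sources used here (0 were found in the reference table of gene names), so genes of these pathways were not looked up by name, and gene models are described by number, level, position and stage.

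The mature libraries differed in depth and in composition, and 1 of them stood apart. Reads counted on gene models numbered 4705119, 7392548 and 12316295 in W, against 10538143, 19650450 and 21971736 in S, and from 15161 to 18153 gene models had a count in W, against 17435 to 20577 in S. Reads on no gene model made up 16.1%, 12.5% and 12.1% in W replicates 1, 2 and 3, against 30.4%, 21.8% and 11.04% in S replicates 1, 2 and 3, a difference of −7.49 percentage points (exact two-sided permutation test, p = 0.4, where 3 against 3 cannot give less than 0.1). The 20 most abundant gene models took 9.03% ± 1.79 of the gene counts in W and 14.3% ± 5.87 in S (SD, n = 3 each, exact two-sided permutation test, p = 0.2). Most of that spread came from a gene model on chromosome 2 that held 3.28%, 0.663% and 0.425% of the counts in W, against 12.3%, 6.94% and 0.385% in S.

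S maturity replicate 1 was less like its own replicates than like the W libraries. Across the 18439 gene models that passed the filter on low counts, its Spearman correlation was 0.836 and 0.817 with S maturity replicates 2 and 3, and 0.853 to 0.883 with the 3 mature W libraries. S maturity replicates 2 and 3 correlated at 0.967 with each other and at 0.785 to 0.834 with the mature W libraries. With the pea-size libraries S maturity replicate 1 correlated at 0.849 to 0.88 for W and 0.837 to 0.848 for S. These gene models are not independent, and the libraries differ in depth, so the values are a description. The typical spread between replicates, taken as the median SD of log2(CPM + 1), where CPM is the count scaled to a common library total, was 0.453 in mature W, against 0.517 in mature S and 0.228 in S maturity replicates 2 and 3 alone.

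The genotype label of this library was read against gene models that S has and W lacks. There were 42 gene models with 0 counts in all 6 W libraries and at least 10 counts in each of the 3 pea-size S libraries and in S maturity replicates 2 and 3, a choice that did not use S maturity replicate 1. S maturity replicate 1 had counts for 27 of the 42, and at least 10 counts for 25. The opposite choice, 0 counts in S and at least 10 in every W library, gave 1 gene model, which was at 0 in S maturity replicate 1 as well. The library thus carried S transcripts that no W library had, and its overall profile lay nearer to W. The rest of the 42 had no count in it. With 1 gene model, the opposite choice cannot show whether it also held W transcripts. The counts and the gene models named below are given with and without it.

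The place of S maturity replicate 1 between the genotypes was measured on gene models called from the other 11 libraries. Without it, 1801 gene models were called higher in W and 1727 higher in S of 19250 tested. On a scale of log2(CPM + 1) with 0 at the mean of W and 1 at the mean of S maturity replicates 2 and 3, its median position was 0.165 for the 1801 gene models higher in W and 0.319 for the 1708 higher in S that were also tested with all libraries. It lay nearer to W for 1289 (71.6%) of the gene models higher in W and for 1098 (64.3%) of those higher in S. The mature libraries that set the ends of this scale also chose the gene models. That choice alone can place a library left out of it nearer to W, by an amount that was not measured.

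**Figure D1:**
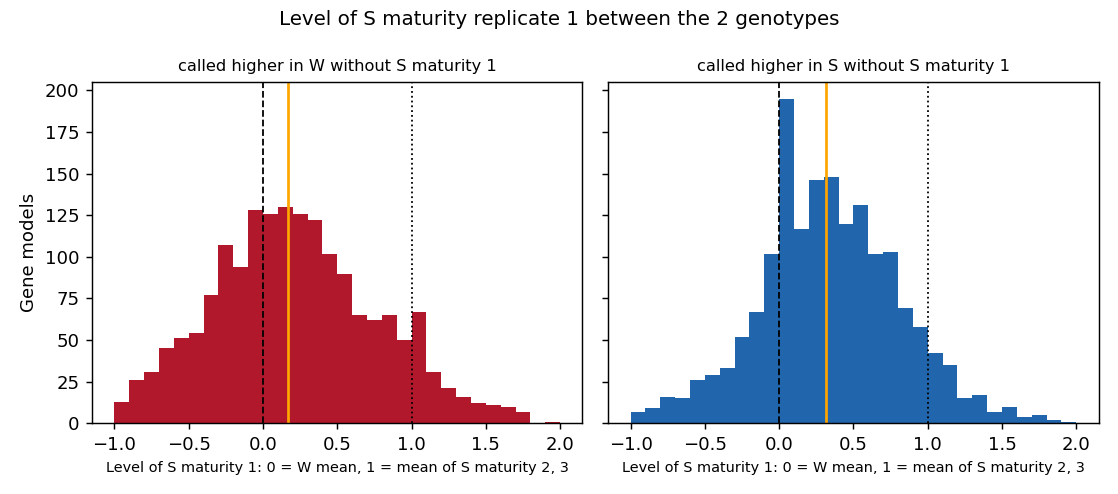
Level of S maturity replicate 1 in gene models called from the other 11 libraries, on a scale where 0 is the mean of the 3 mature W libraries (dashed line) and 1 the mean of S maturity replicates 2 and 3 (dotted line), with the number of gene models in each bin. The orange line is the median, 0.165 for gene models called higher in W (left, 1801) and 0.319 for those called higher in S (right, 1708), and 61 and 25 gene models beyond −1 or 2 are not drawn.

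Which gene models differ in level between weakly and strongly attached pedicels at ripeness was tested with edgeR's quasi-likelihood test, with the fold change taken as W over S. With all libraries, 574 gene models were higher in W, which is 3.11% of those tested, and 642 were higher in S, 3.48% of those tested (Benjamini-Hochberg adjusted p of at most 0.05 and a log2 fold change, log2FC, of at least 1 in size). The median size of the difference was 1.82 on the log2 scale in the gene models higher in W (quartiles 1.33 and 2.58), against 2.78 in those higher in S (quartiles 1.90 and 5.04). A log2FC of 4 or more in size was found for 69 gene models higher in W and for 216 higher in S, while 330 and 182 lay between 1 and 2. Those at 0 counts in the other genotype, for which a fitted fold is not a measured value, were 12 of the gene models higher in W and 90 of those higher in S, and the mature S libraries were deeper in total. Among the well counted ones without overlap, 504 higher in W and 339 higher in S, the median sizes were closer, at 1.64 and 2.01. Well counted means at least 10 counts in every mature library and a mean of at least 50. That limit left 504 of 574 but 339 of 642, and gene models low in the shallower W fail it. The filter can therefore by itself bring the medians closer. Over all gene models called without S maturity replicate 1 the median sizes were 1.94 for those higher in W and 2.46 for those higher in S. Over all 18439 gene models the median log2FC was −0.09. An unadjusted p of at most 0.05 in the same edgeR test was reached by 4352 gene models, a count that does not allow for the number of tests.

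Most called gene models separated the libraries completely. All 3 W libraries lay above all 3 S libraries in 568 of the 574 called higher in W, and all 3 W libraries lay below in 585 of the 642 called higher in S. Among all gene models tested the groups did not overlap in 12.6% with W above S and in 14.4% with W below S, so a lack of overlap was far more common than a call in each direction. Without S maturity replicate 1, 1782 of the 1801 called higher in W and 1726 of the 1727 called higher in S did not overlap, beside 21.6% and 31.1% of all gene models tested. The share of the normalized counts in called gene models is a description, since calls on these same libraries set its direction. The gene models called higher in W took 9.66%, 10.1% and 10.1% in W, against 3.15%, 2.93% and 2.73% in S. Those called higher in S took 1.86%, 1.79% and 1.79% in W, against 3.79%, 10.4% and 12.2% in S replicates 1, 2 and 3. In that set S maturity replicate 1 lay between W and its own replicates, but it took part in the choice of the set.

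**Figure D2:**
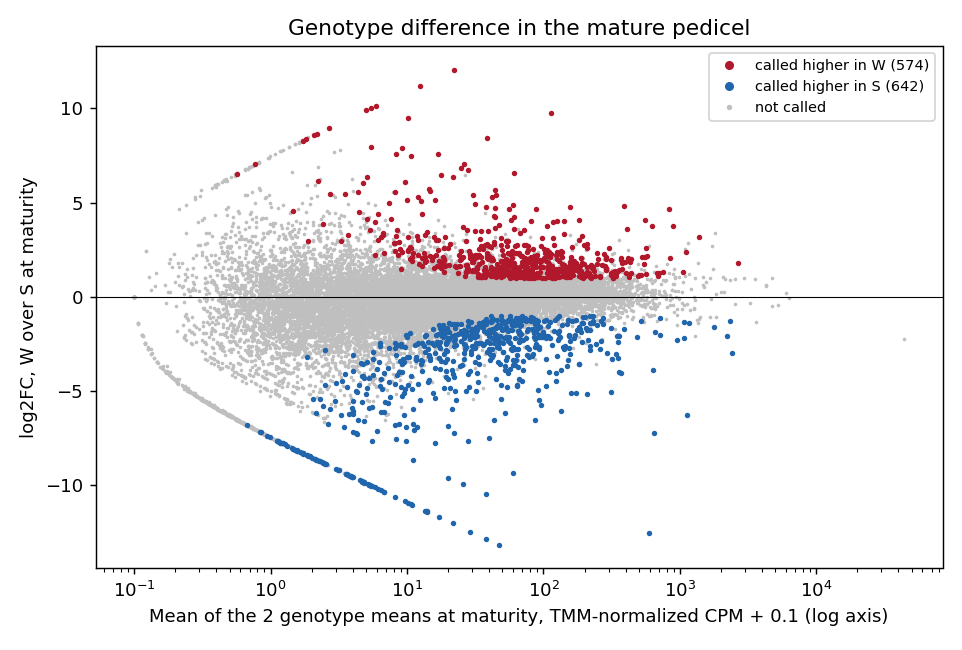
Log2FC of W over S at maturity (vertical axis) against the mean of the genotype means in normalized CPM with 0.1 added (horizontal log axis), 1 point per gene model tested. Red points are the 574 called higher in W, blue points the 642 called higher in S and grey points those not called, and the curved edge of points at the bottom is made of gene models at 0 counts in W.

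The number of calls depended on single libraries. Without S maturity replicate 1 the calls came to 1801 (9.36%) higher in W and 1727 (8.97%) higher in S, and 544 of the 574 (94.8%) and 637 of the 642 (99.2%) were called again. Of the gene models called without it and tested with it, 1670 of 1801 higher in W and 1708 of 1708 higher in S had the same sign with it, so part of those higher in W turned their sign. Without W maturity replicate 1 the counts were 419 and 442. Leaving out any of the other mature libraries lowered them by more than 1.5 times, to 277 and 237 without W maturity replicate 2 and 272 and 173 without W maturity replicate 3. They were 272 and 288 when S maturity replicate 2 was dropped and 257 and 261 when S maturity replicate 3 was. The calls higher in W numbered 373, 381 and 372 when S pea-size replicate 1, 2 or 3 was dropped, although these libraries enter the comparison at maturity only through the filter, the scaling and the estimate of the spread. In the 6 mature libraries alone the counts were 170 and 160.

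**Figure D3:**
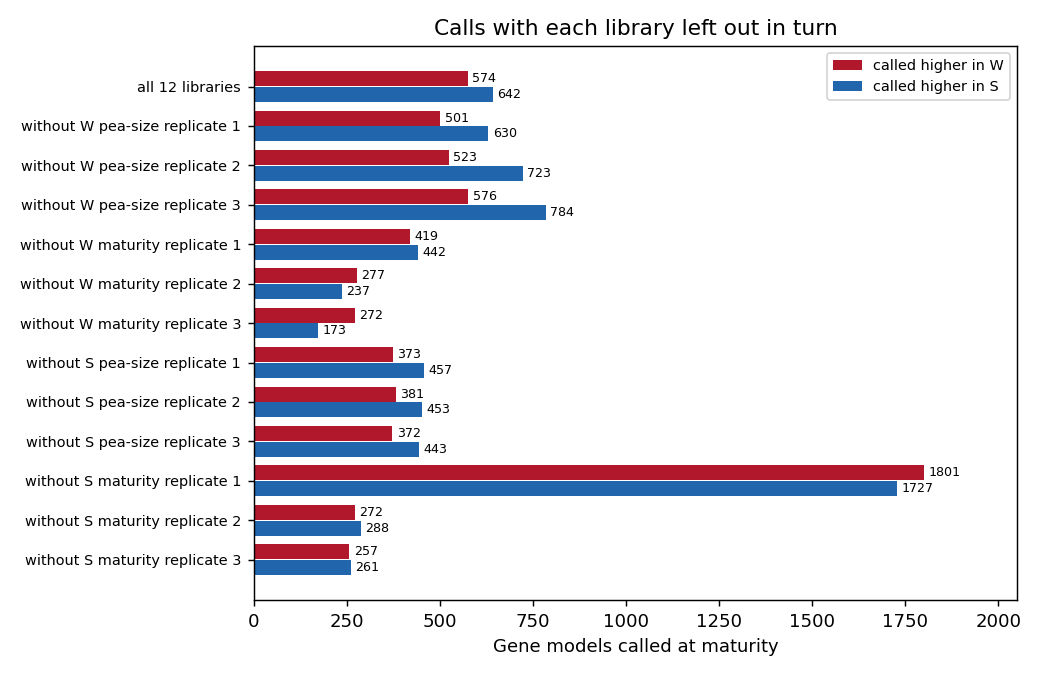
Gene models called higher in W (red) and higher in S (blue) at maturity, with all 12 libraries in the top pair of bars and with 1 library left out in each pair after it. The bars run between 257 and 576 for W and between 173 and 784 for S, except without S maturity replicate 1, where they reach 1801 and 1727.

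The named gene models were those with the largest difference among well counted ones, and the most abundant of those at 0 in the other genotype. Among gene models with counts of at least 10 in every mature library, a mean of at least 50 and no overlap (504 higher in W and 339 higher in S), the largest difference in favour of W was that of evm.model.chr10.312, on chromosome 10. It had 97.8, 81.7 and 81.6 normalized CPM in W, against 2.57, 1.78 and 0.862 in S. The W libraries were close to each other, with all of S far under them. Its log2FC was 5.69 (SE 0.557, edgeR adjusted p = 0.000122), with the next gene model at 4.95 and the tenth at 4.26. The log2FC of evm.model.chr10.312 was 5.99 without S maturity replicate 1 (adjusted p = 3.5e-06). At the pea-size stage evm.model.chr10.312 showed a difference of like size, 38.1, 131 and 76.9 CPM in W against 2.57, 1.32 and 1.21 in S (log2FC 5.58, adjusted p = 0.00013), and the difference between the stages was 0.11 (adjusted p = 0.98).

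Among well counted gene models higher in S, evm.model.chr5.1521 on chromosome 5 differed most. It had 6.32, 11.9 and 7.77 CPM in W, against 172, 1480 and 2180 in S replicates 1, 2 and 3. S maturity replicate 1 was many times above every W library and far under its own replicates. The log2FC was −7.20 (SE 1.24, edgeR adjusted p = 0.00827), or −7.78 without S maturity replicate 1 (adjusted p = 0.00141). Without W maturity replicate 3 the adjusted p of evm.model.chr5.1521 was 0.0501, just past the threshold. The next gene model had a log2FC of 6.29 in size. At the pea-size stage evm.model.chr5.1521 had 33.9, 48.3 and 1.89 CPM in W, against 491, 455 and 472 in S, a log2FC of −4.08 that did not pass the test (adjusted p = 0.0545). The difference between the stages was −3.12 (edgeR adjusted p = 0.318), so the stages were not shown to differ.

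Of the gene models called while at 0 in the other genotype, 12 were present in W and 90 in S. The most abundant one in W was evm.model.chr13.229 on chromosome 13, with 61.0, 34.2 and 36.4 CPM in W (mean 43.9 ± 14.9, SD, n = 3) and 0 in each S library. With 3 counts over the S libraries as the upper limit for a count of 0, it was at least 792-fold higher in W (edgeR adjusted p = 0.00143, or 0.000168 without S maturity replicate 1). It had 2.67, 19.6 and 3.32 CPM in W pedicels at the pea-size stage, where S was again at 0 in all 3 libraries (adjusted p = 0.00478).

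The most abundant one in S was evm.model.chr12.113 on chromosome 12, at 0 in each W library, with 192, 77.9 and 11 CPM in S replicates 1, 2 and 3 (mean 93.6 ± 91.4, SD, n = 3). It was at least 747-fold lower in W by the same limit (edgeR adjusted p = 0.0193). That bound rests largely on S maturity replicate 1, without which the S mean of evm.model.chr12.113 was 44.4 CPM and the bound 355-fold (adjusted p = 0.00374). S maturity replicate 1 was the highest library here, the reverse of its place for evm.model.chr5.1521. The adjusted p of evm.model.chr12.113 was 0.0613 without W maturity replicate 2 and 0.069 without W maturity replicate 3. At the pea-size stage it had 0, 0 and 0.652 CPM in W, against 0.605, 3.58 and 13.3 in S, which did not pass the test (adjusted p = 0.167). The test of the difference between the stages was not passed either (edgeR adjusted p = 0.276).

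**Figure D4:**
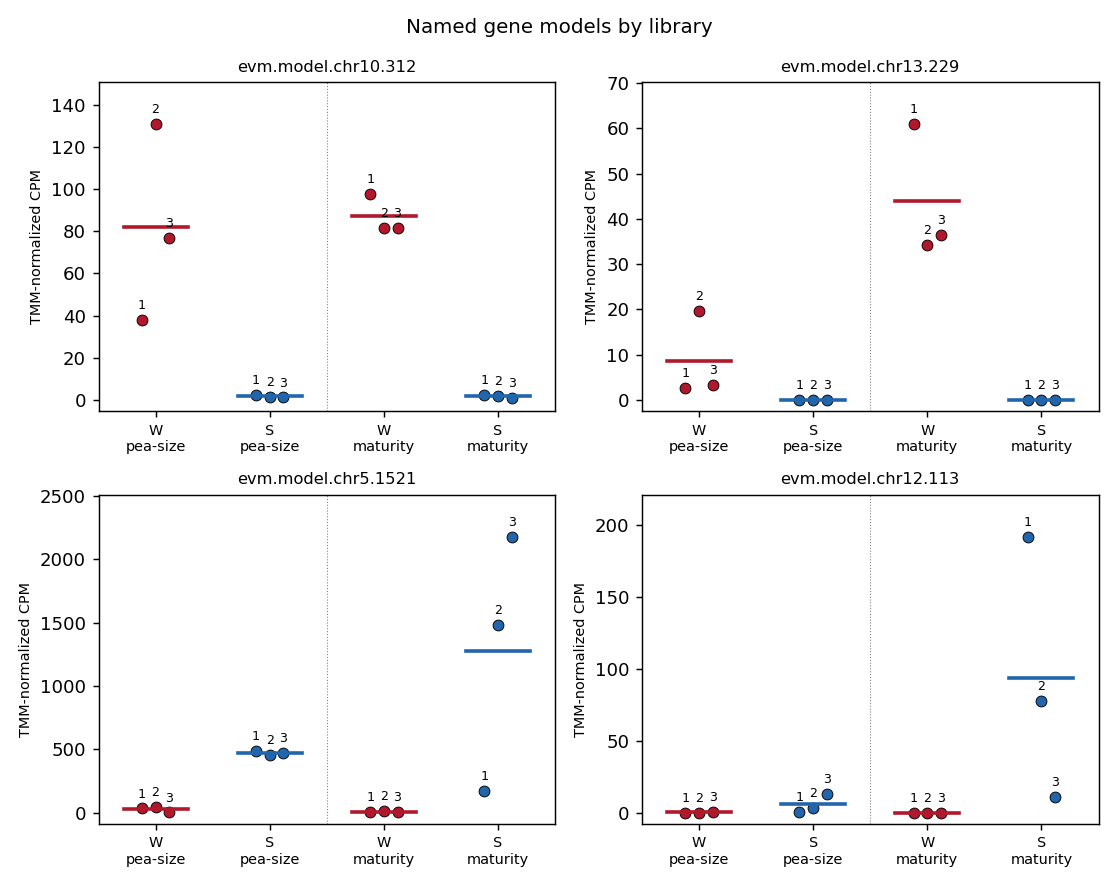
Normalized CPM of the 4 named gene models in each library, W in red and S in blue, with pea-size libraries left of the dotted line and mature libraries right of it. Points carry the replicate number, lines are the means of 3 libraries, and the vertical axis is linear with its own range in each panel, so the S maturity points of evm.model.chr5.1521 spread over 172 to 2180 while its W maturity points lie between 6.32 and 11.9.

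Calls depended on the level of a gene model. The gene models tested were split into 4 classes of equal size by mean CPM at maturity, which is not corrected for gene length. From the lowest to the highest class 15, 69, 153 and 337 were called higher in W (0.325%, 1.5%, 3.32% and 7.31%), and 82, 133, 205 and 222 higher in S (1.78%, 2.89%, 4.45% and 4.82%). Calls in favour of S thus outnumbered those in favour of W in the lower 3 classes, and those in favour of W were more numerous in the highest, with more than 49.9 CPM. The median size of a called log2FC was 7.89, 4.17, 2.09 and 1.75 in the same order. A gene model with few counts needs a larger difference to be called, so the choice by calls can itself set this order. The mature S libraries were deeper in total, and what depth adds to the numbers called in each class was not tested. When S maturity replicate 1 was left out the 4 classes held 42, 195, 495 and 1069 called higher in W (0.873%, 4.05%, 10.3% and 22.2%) and 247, 360, 574 and 546 called higher in S (5.13%, 7.48%, 11.9% and 11.3%), with the same order between the genotypes in every class. Among the 100 most abundant gene models, with at least 788 CPM, 7 were called higher in W and 9 higher in S. The shares were 3.11% and 3.48% over all gene models tested, and 7.31% and 4.82% in the highest class. S maturity replicate 1 lay nearer to W than to its own replicates in 75 of the 100. It also lay nearer to W in 71.6% and 64.3% of the gene models called higher in W and in S without it. The share over all gene models tested is not given here, so this place is not shown to be particular to abundant ones. The 100 most abundant without that library held 33 called higher in W and 21 higher in S. In that fit the shares were 9.36% and 8.97% over all gene models tested, and 22.2% and 11.3% in the highest class.

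Similar levels in W and S could be shown for few gene models. The 95% interval of the log2FC lay within −1 and 1 for 2349 gene models (12.7%), and its median half-width over all gene models was 1.29. Without S maturity replicate 1 there were 2012 such gene models, with a median half-width of 1.31. In the highest class of levels the share was 32%, in the lowest 0.0217%. A further 14874 gene models (80.7%) were neither called nor shown to be alike, so a missing call says little at this depth and spread.

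More gene models were at 0 counts in W than in S. With 0 counts in all 3 mature libraries of 1 genotype and at least 10 counts in each of the other, 143 gene models were at 0 in W and 9 were at 0 in S, of which 74 and 9 passed edgeR's test. The S libraries were deeper, with 24413962 gene counts in all of W and 52160329 in all of S, and a count of 0 is more frequent in shallower libraries. With equal limits for both genotypes, at most 0.125 CPM over the 3 libraries of 1 genotype and at least 2.26 CPM in each library of the other, 80 gene models were at the limit in W and 18 in S. Those limits were chosen after the difference in depth was seen, and without S maturity replicate 1 they gave 199 and 31. A transcript that W lacks and a W sequence whose reads did not map to the 'Noble' genome cannot be told apart in these counts.

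These counts also moved with single libraries. The numbers at 0 in W and in S were 510 and 16 without S maturity replicate 1, 193 and 16 without S maturity replicate 2 and 161 and 22 without S maturity replicate 3. With W maturity replicate 1, 2 or 3 dropped they were 163 and 32, 279 and 14, and 233 and 11. In each of these cases more gene models were at 0 in W. The 143 had a mean of 0.799 to 93.6 CPM in S (median 2.89), and the 9 a mean of 3.44 to 43.9 CPM in W (median 9.84). Of the 143, 47 were at 0 in the pea-size W libraries too, and 82 had more than 3 counts there. Of the 9 at 0 in mature S, 3 were also at 0 and 4 had more than 3 counts in the pea-size S libraries.

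The 42 gene models described above, with no count in W at either stage and at least 10 in 5 S libraries, had a mean of 0.33 to 57.9 CPM in mature S, with a median of 2.82, and a median of 5.04 CPM in pea-size S. They lay on 14 chromosomes, with 7 on chromosome 18, 6 each on chromosomes 12 and 15, and 4 each on chromosomes 3 and 8. Of the 18439 gene models tested, 1462 were on chromosome 18, 863 on 12, 633 on 15, 767 on 3 and 1235 on 8. Whether the 42 gather on any chromosome was not tested. On chromosome 15, 4 of 5 gene models in a row belonged to them. These 4 had 0 counts in every W library, against 8 to 58, 18 to 196 and 74 to 366 counts in S maturity replicates 1, 2 and 3. In the pea-size S libraries the same 4 had 13 to 108 counts. The remaining one of the 5 also had 0 counts in W, and 99 counts in all over the 6 S libraries.

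Called gene models were spread over the whole genome. The share called in either direction ran from 4.81% on chromosome 9 to 8.32% on chromosome 10. Calls in favour of W were most frequent on chromosome 10, at 4.82% of the gene models tested there, and least frequent on chromosome 20, at 1.88%. Calls in favour of S were most frequent on chromosome 3, at 5.22%, and least frequent on chromosome 9, at 1.90%. These shares are beside 3.11% and 3.48% over the whole genome. Once S maturity replicate 1 was dropped, calls in favour of W ran from 7% on chromosome 16 to 12.3% on chromosome 10, and calls in favour of S from 6.57% on chromosome 9 to 11.9% on chromosome 3.

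Some called gene models were neighbours. Runs of 2 or more next to each other among those tested, all called in 1 direction, held 63 (11%) of the gene models higher in W, in 28 runs, and 81 (12.6%) of those higher in S, in 39 runs. With the larger number of calls made without S maturity replicate 1, runs held 476 (26.4%) of those higher in W and 396 (22.9%) of those higher in S, and the longest had 10 members in W and 5 in S. Calls scattered at random also form some runs, more of them the more calls there are. The share to be had that way was not computed, so these shares do not show that calls cluster. With all libraries the longest was a run of 4 on chromosome 10, all higher in W, with log2FC between 5.39 and 8.40. Its members had 50.4 to 99.2, 29.3 to 130 and 48.1 to 128 CPM in W replicates 1, 2 and 3, against 0 to 2.68, 0.508 to 1.37 and 0.0784 to 0.392 CPM in S replicates 1, 2 and 3. At the pea-size stage the same 4 ranged over 6.96 to 34.1, 26.2 to 70.1 and 4.95 to 16 CPM in W, against 0 to 15.7, 0 to 6.21 and 0.875 to 10.9 CPM in S, and 1 of them was called higher in W. Genotypes did not overlap in any of the 4 at maturity, and all 4 were called again without S maturity replicate 1. Neighbours can be copies of 1 gene that share reads, which was not tested.

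With all libraries the longest runs higher in S had 3 members, on chromosome 1 and at 2 places on chromosome 3. In the first of those on chromosome 3 the members had 1.58 to 58.7, 9.57 to 75.2 and 0.827 to 90.9 CPM in mature W, against 19.9 to 101, 74.9 to 893 and 65.5 to 820 CPM in mature S. The range was lowest in S maturity replicate 1, and all 3 were called again without that library. None of the 3 was called higher in S at the pea-size stage.

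Whether the genotypes already differed before ripening was read from the pea-size libraries, which the comparison at maturity does not average over. At the pea-size stage 425 gene models were higher in W, 2.3% of those tested, and 493 were higher in S, 2.67% of those tested. Of the 574 higher in W at maturity, 99 (17.2%) were also higher in W at the pea-size stage, and of the 642 higher in S, 118 (18.4%) were also higher in S. The early difference pointed the same way in 430 (74.9%) of the 574 and in 488 (76%) of the 642, beside 61.5% and 61.6% of all gene models tested with W above and with W below S at maturity. The median pea-size log2FC was 0.50 for the gene models higher in W at maturity and −0.90 for those higher in S, against −0.02 over all gene models tested. From the fit without S maturity replicate 1 the early difference pointed the same way in 75.3% of those higher in W and 72.1% of those higher in S, beside 61.2% and 63.2% of all gene models tested. Read the other way, the median log2FC of the 425 was 2.10 at the early stage and 0.59 at maturity, and that of the 493 was −2.88 and −0.95. A choice by calls at 1 stage can by itself give a smaller median at the other. The medians in both readings therefore do not show a change between the stages.

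A call at 1 stage only does not show that the stages differ, so the difference between the genotype differences was tested in the same edgeR fit. It passed the test in 2.29% of all gene models tested, and in 206 of the 1216 called at maturity. The test contains the difference at maturity. A choice by a call at maturity, and by no call at the pea-size stage, can therefore by itself raise the share that passes it. Of those called at maturity and not at the pea-size stage, 111 of 461 higher in W and 52 of 505 higher in S passed it, so for 350 and 453 the stages were not shown to differ. With S maturity replicate 1 left out it passed in 742 of the 1432 higher in W and 450 of the 1356 higher in S that were not called at the pea-size stage. The share of all gene models that passed in that fit is not given here, so these counts have no background beside them.

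The levels in the 4 groups are given as a description, since the gene models were chosen by calls on the same libraries and that choice alone can set a difference between the stages. For the 461 gene models higher in W at maturity only, the median of the group means was 98.0 CPM in W and 30.1 CPM in S at maturity, and 97.2 CPM in W and 76.6 CPM in S at the pea-size stage. Without S maturity replicate 1 there were 1432 such gene models, with medians of 88.0 CPM in W and 23.6 CPM in S at maturity, and 90.8 CPM in W and 76.8 CPM in S at the pea-size stage. For the 505 higher in S at maturity only, the medians were 8.51 CPM in W and 48.6 CPM in S at maturity, and 13.0 CPM in W and 19.7 CPM in S at the pea-size stage. The 1356 such gene models called without S maturity replicate 1 had medians of 9.84 CPM in W and 45.8 CPM in S at maturity, and 13.7 CPM in W and 17.8 CPM in S at the pea-size stage. For the 99 higher in W at both stages they were 99.0 CPM in W and 16.5 CPM in S at maturity, and 97.0 and 21.9 CPM earlier. For the 118 higher in S at both stages they were 2.37 CPM in W and 41.2 CPM in S at maturity, and 3.54 and 37.7 CPM earlier.

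The genotype order was turned round between the stages in 33 gene models, called in opposite directions in young and in ripe pedicels. There were 14 higher in W at maturity and higher in S earlier, with a median of 29.2 CPM in W and 7.95 CPM in S at maturity, and 25.5 CPM in W and 88.3 CPM in S at the pea-size stage. There were 19 higher in S at maturity and higher in W earlier, with a median of 24.3 CPM in W and 83.6 CPM in S at maturity, and 52.1 CPM in W and 13.2 CPM in S at the pea-size stage. A difference between the stages is set by that choice and is not a further result. Without S maturity replicate 1 there were 62 and 63, which held 14 of the 14 and 18 of the 19.

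The counts at both stages fell when other libraries were left out. The numbers higher in W at both stages and higher in S at both stages were 307 and 308 without S maturity replicate 1, and 49 and 78 without S maturity replicate 3. They were 45 and 73 once W maturity replicate 2 was dropped, and 43 and 58 once W maturity replicate 3 was dropped. They were 24 and 50, 31 and 55, and 30 and 59 without S pea-size replicates 1, 2 and 3. The number higher in W at both stages alone moved to 63 and 61 without W pea-size replicates 1 and 2, to 63 when W maturity replicate 1 was dropped, and to 53 when S maturity replicate 2 was. The 206 gene models whose genotype difference differed between the stages became 1406 without S maturity replicate 1. They became 76 and 75 without W maturity replicates 2 and 3, 100 and 109 without S maturity replicates 2 and 3, 92, 96 and 101 without S pea-size replicates 1, 2 and 3, and 114 without W pea-size replicate 1.

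**Figure D5:**
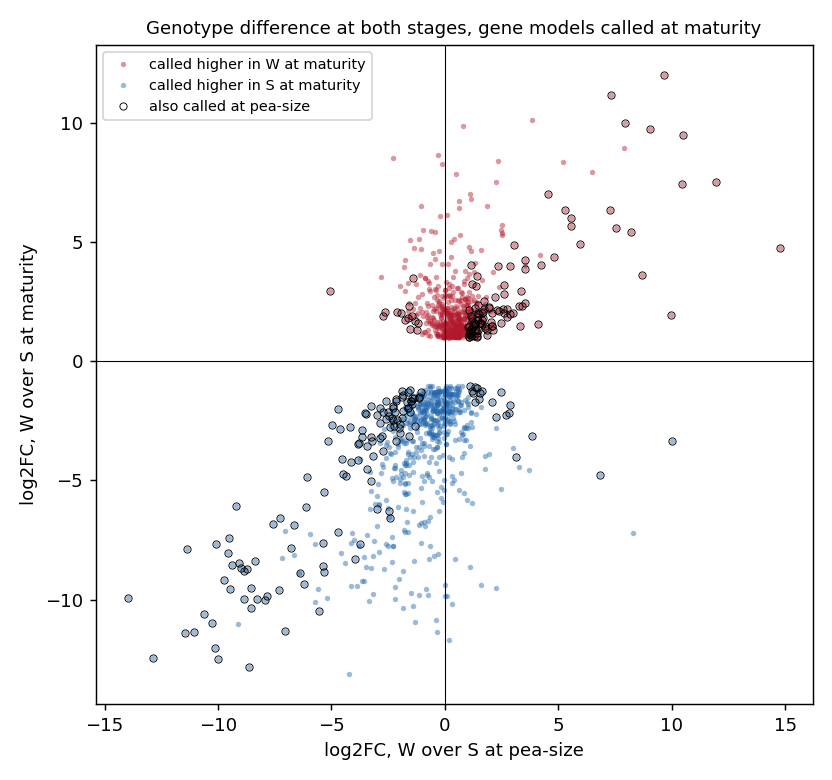
Log2FC of W over S at maturity (vertical axis) against that at the pea-size stage (horizontal axis) for the 574 gene models called higher in W at maturity (red) and the 642 called higher in S (blue), with black rings for those also called at the pea-size stage. Rings in the upper right (99) and lower left (118) are called in the same direction at both stages, and rings in the upper left (14) and lower right (19) in opposite directions.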

How the data were processed

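The authors mapped trimmed reads to the 'Noble' genome with STAR and, after removal of duplicates, used HTSeq to count reads on gene models. What they deposited are raw counts, and 5 summary entries per file were dropped. The libraries are directional, and the strand setting of the counting is not given in the sources used here, so overlapping gene models on opposite strands are uncertain. A tissue type label reads mature for all 12 libraries and was not used.

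Genotypes were compared at each stage with edgeR 4.0.16 (R 4.3.3, limma 3.58.1), whose robust quasi-likelihood F test was run on all 12 libraries with TMM scaling and 1 mean per group, after filterByExpr (minimum count 10, minimum total count 15) had left 18439 gene models. Calls needed a log2FC of 1 or more in size and a Benjamini-Hochberg adjusted p no higher than 0.05. CPM are counts scaled by TMM-adjusted library totals. The SE was obtained as |log2FC| over the root of F. DESeq2 1.42.0 was an alternative. Figures were drawn with matplotlib 3.10.9. The method was tested on simulated data.

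Named gene models are, in each direction, the called one with the largest log2FC among those with a mean of at least 50 counts, at least 10 counts in every mature library and no overlap, and the most abundant called one at 0 in the other genotype. The comparisons and lists were chosen with earlier results of these data known. Replicate numbers did not pair W and S: deviations of same-numbered mature libraries correlated from −0.0202 to −0.01. No libraries were duplicates. Limits for a count of 0 cover counting error only, while the intervals of the log2FC include the spread between replicates.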

Additional observations from a re-analysis of the deposited data

Results flagged for a closer look

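The genotype difference at maturity differed from that at the pea-size stage, by the test of the difference in edgeR's fit, in 206 gene models called at maturity. Of these, 33 were called in opposite directions at the 2 stages, 14 of them higher in W and 19 higher in S at maturity, which fixes the difference between the stages by their choice. Choosing gene models by a call at maturity can also raise the number that pass, since the test of the difference contains the difference at maturity.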

How the results depend on the processing

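The main counts were 574 higher in W and 642 higher in S, with 99 and 118 in the same direction at both stages and 206 whose genotype difference differed between the stages. In the 6 mature libraries alone 170 and 160 were called, and 45 and 53 at both stages. DESeq2 with an adjusted p gave 838 higher in W and 1630 higher in S, 169 and 374 at both stages and 625 that differed between the stages. DESeq2 with an unadjusted p gave 1215 and 2680, 303 and 785, and 1558. edgeR with an unadjusted p gave 1235 and 2142, 292 and 587, and 1254. A log2FC of at least 2 left 244 and 460, 39 higher in W at both stages and 128 that differed between the stages. At least 10 counts in every mature library left 63 higher in W at both stages. DESeq2's size factors in edgeR gave 493 and 722. The cause of these shifts was not tested.

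With the replicate number as a block 479 and 405 were called, 65 and 74 at both stages, and 135 differed between the stages, but same-numbered libraries of W and S did not deviate together, so the numbers do not pair them.

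With each library left out in turn the counts ranged from 257 to 1801 higher in W, from 173 to 1727 higher in S, from 24 to 307 and from 50 to 308 at both stages, and from 75 to 1406 for a difference between the stages. The 5 mature libraries without S maturity replicate 1, chosen after seeing the data, gave 1816 and 1621, with 296 and 233 at both stages.

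The 143 gene models at 0 in W and 9 at 0 in S became 24 and 3 with at least 50 counts in each library of the other genotype, 231 and 16 with up to 3 counts allowed, and 80 and 18 with equal CPM limits. With each library left out they ranged from 161 to 510 and from 11 to 32.

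The 4 named gene models kept their direction under every alternative run. Those higher in W passed the test in 24 of 24 and 23 of 23 alternatives. Those higher in S passed it in 23 of 24 and 21 of 23. Mature W had the fewest counts in total of the 4 groups, so a count of 0 there sets a higher limit than in mature S.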
